A study of Mus musculus with 10 samples.

Results

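Secreted Wnt antagonists were examined in bulk RNA-seq of the E14.5 mouse pinna prominence, the outgrowth that forms the outer ear. The genes were *Sfrp1*, *Sfrp2*, *Sfrp4*, *Sfrp5*, *Frzb*, *Dkk1*, *Dkk2*, *Dkk3* and *Wif1*, taken by symbol, and all 9 were found among the 53465 genes of the count table. Libraries came from 5 wild-type (WT) embryos and 5 mEC1dup/dup embryos, which carry an additional copy of the mouse enhancer mEC1 on each allele. mEC1 lies near *Hmx1*, a gene for a homeodomain transcription factor, and the insertion was made with Cas9 in fertilized eggs and bred to homozygosity on the C57BL/6J background. The labels give no treatment for either genotype. The enhancer change was present in every cell of the embryo rather than in a chosen cell type, and the whole prominence was dissected, so each library mixes the RNA of all its tissues. The genes were selected on the measured difference between these genotypes, with *Sfrp5* as the leading gene, so their differences between WT and mEC1dup/dup are given as a description. Where calls over all genes are given for them, nothing is read from those calls.

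Wnt proteins signal by holding together a Frizzled receptor and the co-receptor LRP5 or LRP6, which stabilises beta-catenin in the canonical branch of the pathway. Secreted antagonists act outside the cell in different ways. The SFRP proteins (*Sfrp1*, *Sfrp2*, *Sfrp4*, *Sfrp5* and *Frzb*) carry a Frizzled-like cysteine-rich domain and bind Wnt itself, as does WIF1 through its own domain, whereas DKK1 and DKK2 bind LRP5 and LRP6 and DKK3 is a divergent member of its family. In the skin and in craniofacial mesenchyme, Wnt signalling is known for its roles in hair placode induction, dermal fate and skeletal patterning.

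The 10 libraries held 17461544 to 18462073 counts each. *Hmx1* served as a check of the labels, with counts scaled to the size of each library (CPM). It ranged from 21.7 to 29.1 CPM in WT and from 52.8 to 77.5 CPM in mEC1dup/dup, which on the log2 scale was a rise of 1.31 (SE 0.10, edgeR adjusted p = 0.000127). Beyond genotype, the libraries differed in 2 measures. *Xist*, transcribed from the inactive X chromosome of female cells, was at 5 reads or fewer throughout WT, whereas mEC1dup/dup replicates 1 to 5 had 12812, 19040, 18165, 2096 and 0 reads. The embryonic globin genes gave 18.4% to 23.3% of all globin counts in WT and 32.5% to 35.6% in mEC1dup/dup, so that this share and the genotype cannot be told apart. Within WT, replicate 4 stood apart by its neuron markers, which summed to 662 CPM against 44.5 to 235 CPM in the other 4 WT libraries. It also had the lowest fibroblast marker sum, 14106 CPM against 17092 to 22474 CPM in the other 4.

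*Sfrp5* was the antagonist with the widest separation between genotypes, and *Sfrp1*, its close relative, differed in the opposite direction. Per library, *Sfrp5* had 56.0, 46.9, 52.4, 51.8 and 47.7 CPM in WT replicates 1 to 5. In mEC1dup/dup replicates 1 to 5 it had 31.1, 26.8, 32.0, 29.8 and 33.7 CPM. All 5 mEC1dup/dup libraries were below all 5 WT libraries, with a gap from 33.7 to 46.9 CPM between the groups. The means were 51.0 ± 3.72 CPM in WT and 30.7 ± 2.57 CPM in mEC1dup/dup (SD, n = 5 each), a ratio of 0.602. On the log2 scale the difference was -0.73 (standard error, SE, 0.068, 95% interval -0.88 to -0.58). These values rested on 847 to 970 reads per WT library and 487 to 622 reads per mEC1dup/dup library.

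*Sfrp5* (ENSMUSG00000018822) is a protein-coding gene on the minus strand of GRCm39, at chr19:42186410-42190691, and no exon of another annotated gene overlaps its exons. The 250 bases before its transcription start are shown because it had the largest difference of the 9 genes and because the product of *Hmx1*, the gene that was higher in mEC1dup/dup, binds DNA. The sequence is from RefSeq (table of GRCm38.p6). It was matched to GRCm39 at chr19:42190692-42190941, on the minus strand, and is written 5′ to 3′. It ends at the base before the annotated gene start, has a GC content of 59.6% against a median of 52.4% over all promoters in the table, and would show any match to the motifs searched in capitals.
Sfrp5 promoter: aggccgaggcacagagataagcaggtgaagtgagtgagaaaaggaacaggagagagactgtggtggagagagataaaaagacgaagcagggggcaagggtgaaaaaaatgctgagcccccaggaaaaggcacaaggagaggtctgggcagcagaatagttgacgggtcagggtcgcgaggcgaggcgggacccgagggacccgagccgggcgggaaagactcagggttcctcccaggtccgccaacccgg

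Both strands of these 250-base windows were searched for CAAGTG, read as CACTTG on the other strand, the core of sites bound by HMX proteins, and for CTTTGA, read as TCAAAG on the other strand, the core of sites bound by the TCF and LEF factors of the Wnt pathway. Promoters were found for 6 of the 9 genes, which were *Sfrp2*, *Sfrp5*, *Frzb*, *Dkk1*, *Dkk2* and *Wif1*. *Sfrp1*, *Sfrp4* and *Dkk3* had no entry. CAAGTG was present in 0 of the 6 windows and in 11.6% of all 32851 promoters in the table. CTTTGA was present in the windows of *Frzb* and *Dkk1* and in 13.8% of all promoters, and with no CAAGTG beside it no matches of the 2 motifs overlapped. A match of this kind describes letters in a window and does not show a site in use, and the absence of the letters says nothing of binding elsewhere.

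The matches are shown in windows of 30 bases, on the minus strand of GRCm39 and written 5′ to 3′, with the TCF/LEF letters in capitals. The *Frzb* match lies 90 to 95 bases before the RefSeq start, in the window chr2:80277818-80277847. The *Dkk1* matches lie 169 to 174 bases before the start, in the window chr19:30527053-30527082, and 112 to 117 bases before it, in the window chr19:30526996-30527025. The GENCODE gene start lies 564 bases upstream of the RefSeq start for *Frzb* and 169 bases upstream for *Dkk1*, so by that annotation the *Frzb* match and the nearer *Dkk1* match are inside the gene, and the farther *Dkk1* match reaches its first base. *Dkk1* was the only 1 of the 6 genes with more than 1 match, in opposite orientations.
Frzb match: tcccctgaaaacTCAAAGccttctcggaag
Dkk1 distal match: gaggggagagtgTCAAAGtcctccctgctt
Dkk1 proximal match: ctcctcccaaagCTTTGAaatcccatcccg

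*Sfrp1* (ENSMUSG00000031548, plus strand, chr8:23901263-23939648) encodes an SFRP of the same subgroup as *Sfrp5*. It had 334, 301, 306, 299.6 and 312 CPM in WT replicates 1 to 5. In mEC1dup/dup replicates 1 to 5 it had 345, 357, 361, 385 and 386 CPM. All 5 mEC1dup/dup libraries were above all 5 WT libraries, with WT replicate 1 the closest to them. The means were 311 ± 13.9 CPM (SD, n = 5) and 367 ± 18.1 CPM (SD, n = 5), a ratio of 1.18. The log2 difference was 0.24 (SE 0.043, 95% interval 0.15 to 0.33), smaller in size than that of *Sfrp5*. *Sfrp1* was also the least variable of the 9 genes, with a coefficient of variation of 4.49% in WT and 4.94% in mEC1dup/dup.

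*Sfrp2* (ENSMUSG00000027996, plus strand, chr3:83673481-83681623) completes this subgroup and was by far the most abundant antagonist. Its values were 1336, 1463, 1366, 1061 and 1323 CPM in WT replicates 1 to 5 and 1527, 1421, 1431, 1300.4 and 1380.4 CPM in mEC1dup/dup replicates 1 to 5. The groups overlapped, and the lowest value belonged to WT replicate 4, the library with high neuron markers and the lowest fibroblast sum. Whether these are connected was not tested. On the log2 scale mEC1dup/dup minus WT was 0.11 (SE 0.072, 95% interval -0.05 to 0.26), and it was 0.04 without WT replicate 4. Exons of an antisense lncRNA, *Gm26771*, cover 21.0% of the exonic bases of *Sfrp2*, and reads of the 2 genes cannot be told apart without strand.

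*Sfrp4* and *Frzb* form the other SFRP subgroup. *Sfrp4* (ENSMUSG00000021319, plus strand, chr13:19807274-19817164) was sparse, with 8.67, 9.96, 10.6, 8.36 and 6.87 CPM in WT replicates 1 to 5. It had 9.89, 6.23, 5.87, 5.12 and 6.28 CPM in mEC1dup/dup replicates 1 to 5, from 95 to 173 reads. Of the mEC1dup/dup libraries, 4 lay below all WT libraries and replicate 1 lay among them. The log2 difference was -0.41 (SE 0.17, 95% interval -0.79 to -0.04). It was 0.0079 (SE 0.82) with the share of embryonic globins added to the fit, and -0.60 without mEC1dup/dup replicate 1. That library also had the lowest summed cartilage markers, 2860 CPM against 6249 to 8494 CPM in the other 4 mEC1dup/dup libraries, and whether the 2 are connected was not tested.

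*Frzb* (ENSMUSG00000027004, minus strand, chr2:80242313-80278304), known from cartilage, did not separate the genotypes. It ranged from 33.1 to 44.7 CPM in WT and from 33.6 to 42.9 CPM in mEC1dup/dup. The groups covered nearly the same span, with a log2 difference of 0.05 (SE 0.098, 95% interval -0.16 to 0.26). An antisense lncRNA covers 3.78% of its exonic bases.

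*Wif1* (ENSMUSG00000020218, plus strand, chr10:120869865-120936555), which binds Wnt without being an SFRP, was lower on average in mEC1dup/dup. It had 41.2, 44.8, 40.7, 31.3 and 36.4 CPM in WT replicates 1 to 5 and 32.9, 30.3, 32.5, 31.1 and 27.7 CPM in mEC1dup/dup replicates 1 to 5. The overlap came from WT replicate 4, since the other 4 WT libraries were above all mEC1dup/dup libraries. The means were 38.9 ± 5.17 CPM (SD, n = 5) and 30.9 ± 2.09 CPM (SD, n = 5). The log2 difference was -0.33 (SE 0.087, 95% interval -0.52 to -0.14). It was -0.40 without WT replicate 4 and 0.04 (SE 0.39) with the share of embryonic globins added to the fit. *Wif1* was not called in the fit by genotype alone. It was called by DESeq2, without a filter on low counts, without WT replicate 4 and with the replicate block.

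For each of the 3 DKK genes the groups overlapped. *Dkk1* (ENSMUSG00000024868, minus strand, chr19:30523263-30527065), an LRP5 and LRP6 antagonist and itself a Wnt target in many tissues, had 8.84, 6.64, 6.73, 8.25 and 8.20 CPM in WT replicates 1 to 5. In mEC1dup/dup it had 10.8, 9.59, 10.05, 7.98 and 10.2 CPM. Of these libraries, 4 were above all WT libraries, and replicate 4 lay within the WT range. This gave a log2 difference of 0.33 (SE 0.12, 95% interval 0.08 to 0.58), from 120 to 153 reads per WT library.

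*Dkk2* (ENSMUSG00000028031, plus strand, chr3:131790336-131886065), which also binds LRP5 and LRP6, had 116 to 142 CPM in WT and 119.8 to 163 CPM in mEC1dup/dup. Only mEC1dup/dup replicate 1 lay outside the WT range. The genotypes differed by 0.10 on the log2 scale (SE 0.075, 95% interval -0.06 to 0.26). *Dkk3* (ENSMUSG00000030772, minus strand, chr7:111712904-111758760) was lower in mEC1dup/dup on average, with 109, 133, 124, 116 and 119.5 CPM in WT replicates 1 to 5 and 85.2, 112, 107, 115 and 98.4 CPM in mEC1dup/dup replicates 1 to 5. All 5 mEC1dup/dup libraries were below the WT mean and 3 were below every WT library. This gave a log2 difference of -0.22 (SE 0.076, 95% interval -0.38 to -0.06). Of the settings tried, *Dkk3* was called, at an adjusted p of at most 0.05 over all genes, only with the replicate block. Because this contrast chose the genes, nothing is read from that call.

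**Figure D1:**
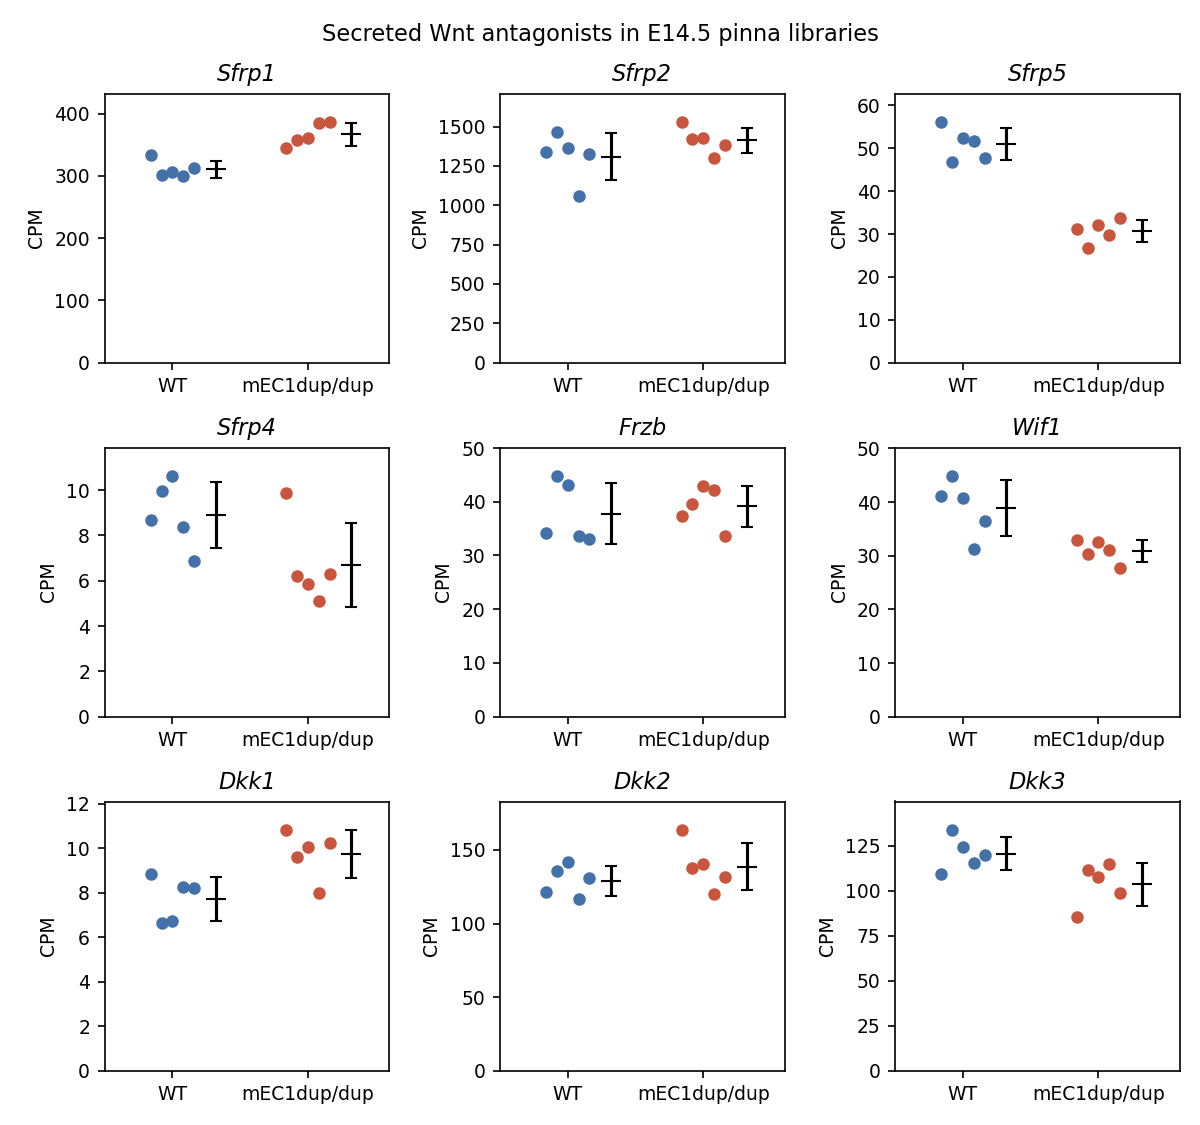
CPM (linear axes from 0) of the 9 antagonists in each WT library (blue) and each mEC1dup/dup library (red), replicates 1 to 5 from left to right, with the mean and SD of each group beside the points. Only *Sfrp5* and *Sfrp1* have groups that do not overlap, at 46.9 to 56.0 against 26.8 to 33.7 CPM and at 299.6 to 334 against 345 to 386 CPM.

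Across the 16426 genes that passed the filter on low counts, a gene was called at an adjusted p of at most 0.05 and a mean log2 CPM of at least 1. By this rule 2.64% of genes were called, 1.81% lower and 0.834% higher in mEC1dup/dup. All 9 antagonists passed the filter, 1 was called lower (*Sfrp5*) and 1 higher (*Sfrp1*). The groups did not overlap for 5.07% of the genes tested, with mEC1dup/dup all below WT for 2.75% and all above for 2.33%, and the same 2 antagonists were the ones without overlap. Since this contrast chose the genes, nothing is read from these counts. The median log2 difference was 0.05 over the 9 antagonists and -0.0042 over all genes tested, where the median SE was 0.083. The intervals given for single antagonists are not adjusted for the number of genes and serve to describe precision only. In bulk tissue, fewer cells that express a gene and less RNA of it per cell cannot be told apart.

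**Figure D2:**
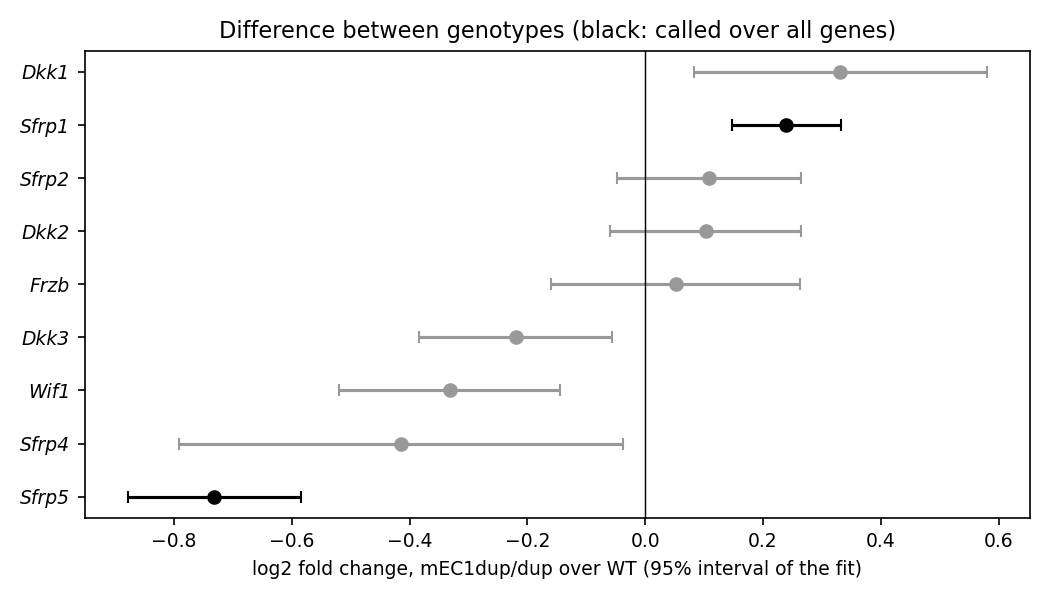
Log2 fold change of mEC1dup/dup over WT (horizontal axis) for each antagonist, with the 95% interval of the edgeR fit, and in black the 2 genes called over all genes. *Sfrp5* lies lowest at -0.73 and *Dkk1* highest at 0.33, and *Sfrp1* has the shortest interval, 0.15 to 0.33.

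The difference of *Sfrp5* and *Sfrp1* was also read within the libraries that differ in *Xist*. mEC1dup/dup replicates 4 and 5, with 2096 and 0 *Xist* counts, had 29.8 and 33.7 CPM of *Sfrp5* and 385 and 386 CPM of *Sfrp1*. With only these 2 libraries against WT, a comparison chosen after seeing the data, the log2 difference was -0.68 (SE 0.088, 95% interval -0.88 to -0.48) for *Sfrp5* and 0.31 (SE 0.053, 95% interval 0.19 to 0.43) for *Sfrp1*. Over all libraries these values were -0.73 and 0.24. mEC1dup/dup replicate 4 still had more *Xist* reads than any WT library, neither gene met the threshold for a call in this smaller fit, and the part of *Xist* or of sex in the differences was not tested. Adjusted for *Xist* (its log2 CPM added to the fit) they were -0.62 (SE 0.10) and 0.31 (SE 0.061). Adjusted for the share of embryonic globins they were -0.25 (SE 0.27) and 0.60 (SE 0.16), with wide errors, and that share follows the genotype.

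The opposite differences altered the balance of these 2 SFRP genes within each library, a ratio that does not depend on the scaling between libraries. There were 5.96, 6.42, 5.85, 5.78 and 6.54 *Sfrp1* reads for each *Sfrp5* read in WT replicates 1 to 5. The ratio was 11.1, 13.3, 11.3, 12.9 and 11.5 in mEC1dup/dup replicates 1 to 5. The mean ratio in mEC1dup/dup was 1.96 times that in WT, and the SD over 5 libraries was 0.34 in WT and 1.02 in mEC1dup/dup. As both genes were chosen for this contrast, the ratio repeats the selected difference in another form.

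**Figure D3:**
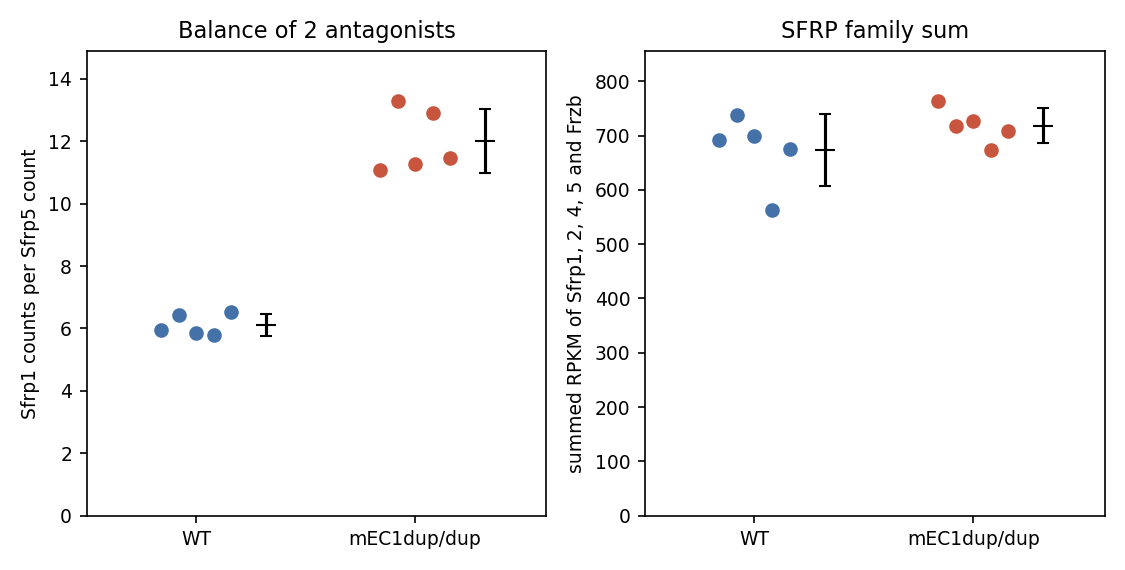
Left, *Sfrp1* counts per *Sfrp5* count in each library. Right, the summed RPKM of the SFRP family. Points are WT (blue) and mEC1dup/dup (red) libraries with mean and SD, on linear axes from 0. The ratio lies at 5.78 to 6.54 in WT and 11.1 to 13.3 in mEC1dup/dup, whereas the family sums overlap at 562 to 738 and 674 to 764 RPKM.

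Levels were compared between genes per kilobase of exon (RPKM). In WT the order was *Sfrp2* at 569.5 ± 64.9, *Sfrp1* at 64.4 ± 2.89, *Dkk2* at 30.4 ± 2.42, *Sfrp5* at 26.8 ± 1.96, *Dkk3* at 17.6 ± 1.33, *Wif1* at 15.5 ± 2.06, *Frzb* at 10.5 ± 1.57, *Dkk1* at 3.19 ± 0.41 and *Sfrp4* at 2.13 ± 0.35 RPKM (SD, n = 5 each). The neighbours *Dkk2* and *Sfrp5* overlapped over the WT libraries, as did *Dkk3* and *Wif1*, so their order is not resolved. *Wif1* and *Frzb* were barely separated, with a lowest *Wif1* value of 12.5 and a highest *Frzb* value of 12.4 RPKM. The order of the means was the same in mEC1dup/dup and with the length of the longest transcript in place of all exons.

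*Sfrp2* alone made up 76.8% of the summed level of the 9 genes in WT and lay at percentile 99.8 of all genes tested. *Sfrp5* lay at percentile 91.3 and gave 3.66% of that sum in WT and 2.07% in mEC1dup/dup, while *Sfrp4* lay at percentile 35.8. Within the SFRP family the share of *Sfrp5* was 4.02% ± 0.57 in WT and 2.25% ± 0.20 in mEC1dup/dup (SD, n = 5 each). The summed level of the 9 genes was 740.1 ± 70.5 RPKM in WT and 783 ± 35.8 RPKM in mEC1dup/dup (SD, n = 5 each), with overlapping groups. Without *Sfrp2* the sums were 171 ± 6.49 and 169 ± 1.95 RPKM, and all mEC1dup/dup sums lay within the WT range. The DKK genes summed to 51.2 ± 3.16 and 51.8 ± 2.84 RPKM.

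**Figure D4:**
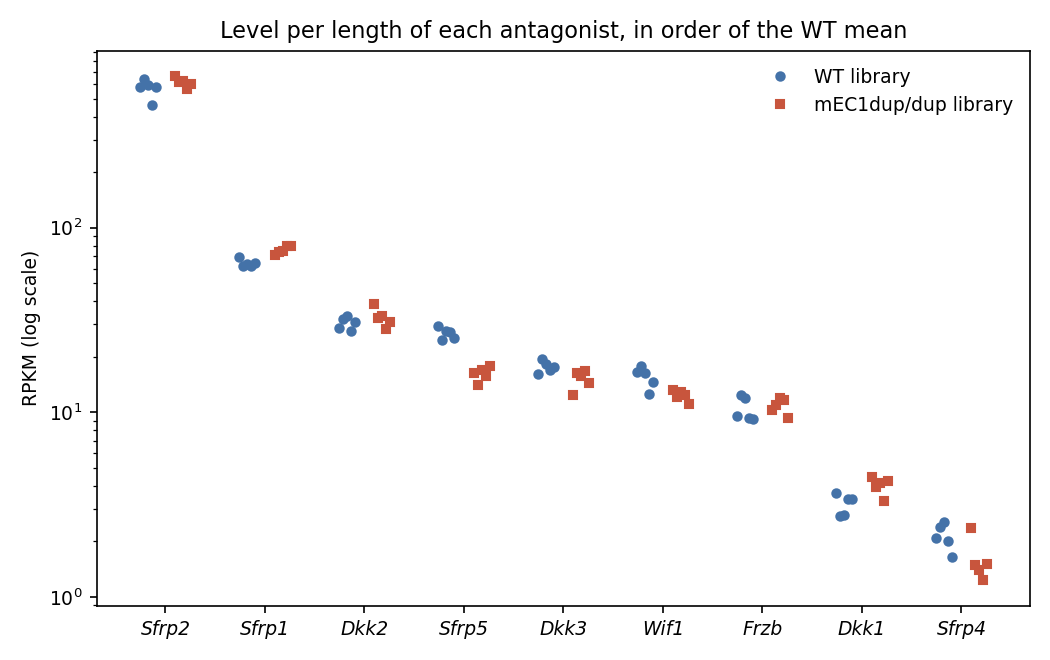
RPKM on a log scale of each antagonist in the 5 WT (blue circles) and 5 mEC1dup/dup (red squares) libraries, in order of the WT mean. *Sfrp2* lies apart at 461 to 664 RPKM over all libraries, and *Dkk1* and *Sfrp4* lie lowest, at 1.23 to 4.45 RPKM.

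Likeness between genes was measured on deviations from the mean of each genotype, which removes the difference between genotypes, over the 10 libraries and the 14083 genes with a mean log2 CPM of at least 1. It is a description, and all points share library preparation and depth. The genes named had the highest r of 14083 over 10 libraries, and high values can follow from such picking. Leaving out 2 libraries reuses the same points and is no separate check. The deviations most like those of *Sfrp5* were those of *Mast3* (Pearson r = 0.93, Spearman rho = 0.94), *Polr2i* (0.92 and 0.87), *Ltf* (0.92 and 0.85), *Ercc3* (0.91 and 0.85) and *Mrpl39* (0.90 and 0.84). Without the 2 libraries farthest from the median of *Sfrp5*, WT replicate 2 and mEC1dup/dup replicate 2, r was 0.82 to 0.88. None of these 5 genes was called between genotypes, with log2 differences of -0.02 to 0.09, so they did not share the difference of *Sfrp5*. For *Sfrp1*, *Tbx1* (0.95 and 0.95) and *Zfpm1* (0.94 and 0.90) were among the most alike, with r of 0.92 to 0.98 without the 2 farthest libraries.

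Among the 36 pairs of antagonists, the 2 farthest libraries were those farthest from the median of the gene named first. *Sfrp2* and *Dkk2* had deviations that varied together (r = 0.75 and rho = 0.83, and r = 0.91 without the 2 farthest libraries). *Sfrp4* and *Dkk2* had r = 0.78 (rho = 0.58), and r = 0.38 without the 2 farthest libraries. *Sfrp2* and *Wif1* had the highest r, 0.85 (rho = 0.87), which was 0.46 without the 2 farthest libraries and so rested partly on those libraries. The most negative pairs were *Dkk1* and *Dkk3* (r = -0.80 and rho = -0.92, and r = -0.68 without the 2 farthest libraries) and *Frzb* and *Dkk1* (r = -0.79 and rho = -0.67, and r = -0.63). *Sfrp1* and *Sfrp5* had r = 0.46 (rho = 0.49), and r = -0.10 without the 2 farthest libraries.

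Other genes of the pathway were read from lists drawn up by function, of which 77 of 81 genes could be tested. At the threshold over all genes, 1 was lower and 2 were higher in mEC1dup/dup, beside the 1.81% and 0.834% of all genes. Among 17 other secreted or membrane antagonists, only *Kremen1*, a receptor for DKK proteins, was called. It had 140.4 ± 8.64 CPM in WT and was lower in mEC1dup/dup, at 119 ± 4.98 CPM (SD, n = 5 each). The log2 difference was -0.24 (SE 0.046, edgeR adjusted p = 0.0182), and all mEC1dup/dup libraries were below all WT libraries. The call was lost without WT replicate 2 and without mEC1dup/dup replicate 3. The most abundant genes of this list per length did not pass: *Igfbp4*, a binding protein for insulin-like growth factors that also inhibits Wnt, at 320.4 RPKM in WT (-0.03 on the log2 scale, edgeR adjusted p = 0.819), and *Sostdc1*, a secreted inhibitor of BMP and Wnt, at 31.6 RPKM (-0.08, edgeR adjusted p = 0.741). The median log2 fold change of the list was -0.04.

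Of 18 Wnt ligands and genes for their secretion that could be tested, *Wnt11*, a ligand mostly of the non-canonical branch, was called higher. Its mean was 69.1 ± 4.84 CPM in WT and 83.8 ± 7.79 CPM in mEC1dup/dup (SD, n = 5 each), which is 0.28 higher on the log2 scale (SE 0.067, edgeR adjusted p = 0.0458). The groups overlapped and the call held in 1 of 10 fits that left out 1 library, the one without mEC1dup/dup replicate 4. *Wnt5a*, the most abundant ligand per length at 34.5 RPKM in WT, had 277 ± 43.5 CPM there and 227 ± 27.8 CPM in mEC1dup/dup (-0.29 on the log2 scale, SE 0.11, edgeR adjusted p = 0.188). With the replicate block *Wnt5a* was called lower. *Wnt6*, at 17.7 RPKM, differed by -0.14 (edgeR adjusted p = 0.492).

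Of 25 receptors, co-receptors and R-spondins, *Fzd8*, a Frizzled receptor, was called higher, at 60.1 ± 5.05 CPM in WT and 70.6 ± 2.57 CPM in mEC1dup/dup (SD, n = 5 each). It was 0.23 higher on the log2 scale (SE 0.056, edgeR adjusted p = 0.0459) with all mEC1dup/dup libraries above WT, and the call held in 2 of the 10 fits that left out 1 library, those without WT replicate 5 and without mEC1dup/dup replicate 1. *Fzd2*, the most abundant Frizzled gene at 129.9 RPKM in WT, was above WT in every mEC1dup/dup library without passing the test (0.16 on the log2 scale, edgeR adjusted p = 0.104). *Gpc3*, a cell surface proteoglycan, had 264 RPKM (0.08, edgeR adjusted p = 0.449).

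Of the 17 Wnt response genes and transcription factors tested, 0 were called by edgeR in either direction, with 1 lower and 4 higher at an unadjusted p under 0.05, 2 higher and 0 lower by DESeq2 and 0 by limma-voom. At that unadjusted p the same edgeR fit had 1492 lower and 1166 higher of all 16426 genes. *Twist1*, a mesenchymal transcription factor, was the most abundant at 162 RPKM in WT (0.15 on the log2 scale, edgeR adjusted p = 0.313). *Ctnnb1*, which encodes beta-catenin, had 106 RPKM, was above WT in every mEC1dup/dup library and did not pass the test (0.11, SE 0.033, edgeR adjusted p = 0.106). The median of the list was 0.06. The counts of the 3 called pathway genes were 0 lower and 0 higher after adjustment for *Xist* or for embryonic globins and with mEC1dup/dup replicates 4 and 5 alone. At an unadjusted p under 0.05 the edgeR fit by genotype alone had 7 lower and 14 higher of the 77 pathway genes, and those 3 fits had 7, 1 and 10 lower and 7, 6 and 9 higher. Over all genes the same 3 fits had 933, 384 and 1116 lower and 606, 409 and 683 higher.

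**Figure D5:**
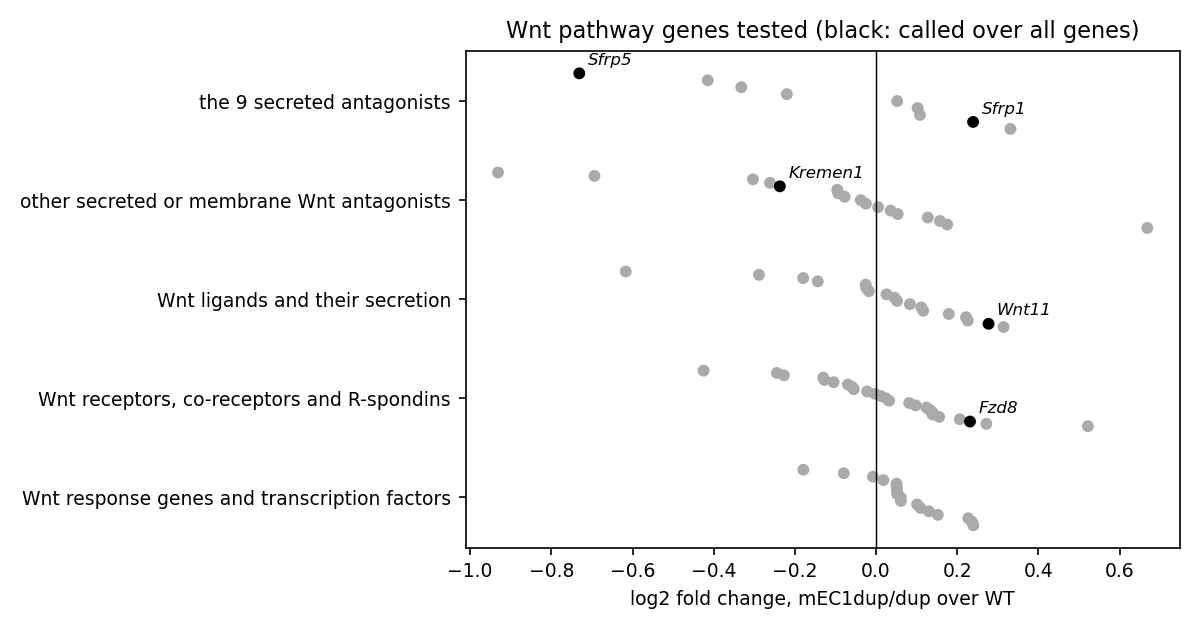
Log2 fold change of mEC1dup/dup over WT (horizontal axis) for each tested gene of the 9 antagonists and of 4 lists of other Wnt pathway genes, 1 point a gene, spread vertically within its list for visibility, with called genes in black and named. *Sfrp5* at -0.73 is the lowest of the 5 called genes, whose others lie between -0.24 and 0.28, and not every gene that lies far from 0 was called.

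Markers of the tissues in the prominence were measured beside these results, and every marker list was expressed in every library. Over all genes tested, 1.81% were called lower and 0.834% higher. The epidermal and cartilage lists include genes that the study had reported as lower in these same libraries. Nothing is therefore read from the number of markers called. Of 16 epidermal and periderm markers, 9 were called lower and 0 higher, among them *Krt5*, *Krt14* and *Krt10*. The log2 difference was below 0 for 13 of the 16 and above 0 for *Krt8* (0.06), *Krt18* (0.19) and *Epcam* (0.04), named after their values were seen, and the sum ranged from 1099 to 2099 CPM in WT and from 834 to 1040 CPM in mEC1dup/dup. Of 14 skeletal muscle markers, 6 were called lower, including *Ckm* and *Acta1*, and the log2 difference was below 0 for 12 and above 0 for *Myog* (0.12) and *Myod1* (0.09), likewise named afterwards, with sums of 2688 to 4138 CPM and 1714 to 2713 CPM. Of 8 perimysium and tendon markers, 4 were called lower (*C1qtnf3*, *Tnmd*, *Fmod* and *Kera*) and 3 of those not called had log2 differences above 0 (*Scx* 0.24, *Mkx* 0.20 and *Thbs4* 0.29, named after their values were seen), with sums of 347 to 431 CPM and 306 to 339.5 CPM. Of 10 fibroblast markers, *Lum* was called lower, with sums of 14106 to 22474 CPM and 14668 to 16702 CPM. The log2 difference was below 0 for 8 and above 0 for *Osr1* (0.27) and *Pdgfra* (0.08). Of 12 cartilage markers, *Comp* was called lower, with sums of 6582 to 10637 CPM and 2860 to 8494 CPM. The log2 difference was below 0 for 10 and above 0 for *Sox9* (0.19) and *Pou3f4* (0.18). These 4 genes above 0 were also named after their values were seen.

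Thus epidermal and perimysial sums did not overlap between genotypes, in the same direction as *Sfrp5*, although the perimysial list held 5 genes with a log2 difference below 0 and 3 above. The perimysial sum, with means of 383 CPM in WT and 322 CPM in mEC1dup/dup, leaned on *C1qtnf3*. That gene had means of 93.7 and 51.7 CPM, and its own groups overlapped. The muscle sums overlapped through mEC1dup/dup replicate 1 (2713 CPM), while the other 4 mEC1dup/dup libraries, at 1714 to 2610.0 CPM, were below all WT libraries. The sums of fibroblast and of cartilage markers overlapped. Endothelial markers summed to 485 to 596 CPM in WT and 503 to 567 CPM in mEC1dup/dup, and macrophage markers to 162 to 183 CPM and 153 to 183 CPM. Pericyte and smooth muscle markers summed to 474 to 576 CPM and 468 to 539 CPM, with *Rgs5* called lower. The log2 difference was below 0 for 4 of the 5 tested and above 0 for *Acta2* (0.12), named after its value was seen. Glial and melanoblast markers summed to 195 to 223 CPM and 157 to 226 CPM, and neuronal markers to 44.5 to 662 CPM and 84.6 to 273 CPM. Of 9 erythroid markers, *Hba-a2* was called lower and *Hbb-y* and *Hba-x* higher, with sums of 1288 to 2045 CPM and 1452 to 2942 CPM. The part of these tissues in the differences of *Sfrp5*, *Wif1*, *Dkk3* and *Sfrp4* was not tested, and *Sfrp1* differed in the direction opposite to the epidermal, perimysial and muscle sums.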

How the data were processed

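Poly(A) RNA of E14.5 pinna prominences was sequenced from 5 WT and 5 mEC1dup/dup embryos. Reads were trimmed (fastp), aligned (STAR, GRCm39) and summed by gene (featureCounts) by the authors, whose deposited values are raw counts with no normalization. The annotation release, the use of strand and the handling of reads with several matches were not given in the sources used here. GENCODE models of GRCm39 gave symbols, positions and exon lengths for 49355 of 53465 genes, and the remainder held 0.111% of counts.

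Counts were filtered (filterByExpr), normalized by TMM and fitted with edgeR version 4.0.16 (estimateDisp, glmQLFit, glmQLFTest, two-sided) (R version 4.3.3). Genotype was the single term, with Benjamini-Hochberg adjustment over 16426 genes. A gene was called at an adjusted p of at most 0.05 and a mean log2 CPM of at least 1. Standard errors are the log2 fold change divided by the square root of F. RPKM are TMM-scaled CPM per kilobase of merged exons, and deviations used log2 CPM with a prior count of 2. Total counts of 17461544 to 18462073 per library limit the precision of sparse genes, and intervals from the fit cover the spread between embryos.

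The embryos are independent according to the study, and no pair of libraries of 1 genotype was a copy (chi-square per degree of freedom 2.57 to 18.5). The 9 genes and the gene lists were chosen with earlier results of these data known. Named beside the 9 genes were *Hmx1*, the called genes and the 2 most abundant genes per length of each pathway list, up to 4 called genes per marker list, and the genes most like *Sfrp5* (5) and *Sfrp1* (3, of which 1 is not reported here). In simulated counts for WT against mEC1dup/dup, with 200 of 16267 tested genes changed by a log2 fold change of 1, 97% of the changed genes were called, 0 of them in the wrong direction, beside 8 unchanged genes. The changed genes excluded those of lowest level, and the change was larger than that of every antagonist. Detection of smaller differences was not simulated, so a gene without a call may still differ. Alternatives were DESeq2 version 1.42.0, limma-voom (limma version 3.58.1), other scaling and filters, the replicate block, a covariate (*Xist* or the share of embryonic globins), and each library left out. Figures used matplotlib version 3.10.9. Sequences of proteins were not used here.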

Additional observations from a re-analysis of the deposited data

How the results depend on the processing

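The values of the 9 antagonists here describe genes chosen on this contrast and are no support for their differences. Under the 10 other settings that give one, the log2 difference ranged from 0.24 to 0.60 for *Sfrp1* and from -0.73 to -0.25 for *Sfrp5*. The log2 difference with 1 library left out ranged from 0.22 to 0.27 for *Sfrp1*, -0.77 to -0.69 for *Sfrp5*, 0.04 to 0.16 for *Sfrp2*, -0.60 to -0.33 for *Sfrp4*, 0.01 to 0.13 for *Frzb*, 0.28 to 0.39 for *Dkk1*, 0.04 to 0.15 for *Dkk2*, -0.26 to -0.16 for *Dkk3* and -0.40 to -0.27 for *Wif1*. Among the fits with 1 library left out, *Sfrp4* was called only without mEC1dup/dup replicate 1 and *Wif1* only without WT replicate 4. Over these fits 120 to 476 genes were lower and 34 to 179 higher, with 1 to 2 antagonists lower, 1 higher, and 0 to 2 other pathway genes in each direction. The DESeq2 Wald test called 507 genes lower and 315 higher, 2 antagonists lower (*Sfrp5* and *Wif1*) and 6 pathway genes higher (*Wnt11*, *Fzd2*, *Fzd8*, *Rspo2*, *Dact1* and *Ctnnb1*). limma-voom called 276 genes lower and 119 higher, with 1 pathway gene higher (*Fzd8*). Without a filter on low counts 329 genes were lower and 132 higher, and 2 antagonists were lower (*Sfrp5* and *Wif1*).

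Same-numbered libraries are different embryos, and although the study states that replicates were siblings from separate litters, it does not say which libraries share one. Their deviations correlated at -0.0558, 0.14, 0.177, 0.345 and 0.205 for replicates 1 to 5 against -0.308 to 0.272 for other pairs (means of 0.162 and -0.0403). Of the same-numbered pairs 4 were above 0.1 and replicate 1 was not, while replicate 4 was above every other pair. These values do not settle whether the numbers pair the libraries. The main fit did not use the numbers, and a shared litter was not tested. With the replicate block, 487 genes were lower and 200 higher, 3 antagonists were lower (*Sfrp5*, *Dkk3* and *Wif1*) and 1 higher (*Sfrp1*), and 3 pathway genes were lower (*Kremen1*, *Wnt5a* and *Tnfrsf19*) and 2 higher (*Wnt11* and *Fzd8*).

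With *Xist* as a covariate 1 gene was lower and 2 higher (933 and 606 at an unadjusted p under 0.05 in edgeR), and with the embryonic globin share 0 and 0 (384 and 409). With mEC1dup/dup replicates 4 and 5 alone, chosen after seeing the data, 0 were lower and 1 higher (1116 and 683). In each of these 3 fits 0 antagonists and 0 pathway genes were called in either direction by edgeR, with 2, 0 and 3 antagonists lower and 1, 1 and 1 higher at an unadjusted p under 0.05. *Sfrp1* had log2 differences of 0.31, 0.60 and 0.31 in these fits. With the globin share the others were 0.35 for *Sfrp2*, 0.0079 for *Sfrp4*, -0.25 for *Sfrp5*, -0.41 for *Dkk3* and 0.04 for *Wif1*, and *Dkk2* was -0.02. *Frzb* was -0.12 with *Xist* as a covariate and *Dkk2* -0.04 with replicates 4 and 5 alone, both with intervals around 0 in the fit without covariates. With the length of the longest transcript, WT levels were 34.4 RPKM for *Dkk2* and 19.9 RPKM for *Dkk3*. For the covariates the cause was not tested. Depth limits *Sfrp4* and *Dkk1* most, with 95 to 189 reads per library.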
